A study of Mus musculus with 3 samples.

Results

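Genes of B cell identity and B cell receptor signalling were followed through RNA-seq (polyA plus) of regulatory T cells from mice. They were 33 genes, taken by name out of the 22457 genes counted in each library, and all 33 were found. The primary cells came from adult animals, 4 months old, and are labelled as originating from haematopoietic cells in bone marrow. No strain, allele or agent is named in the labels, which did not record the sex and do not say whether animals were pooled. All 3 libraries belong to 1 group and are technical replicates 1, 2 and 3 of biological replicate 1. A difference between them is therefore one between libraries of a single biological replicate, with no second condition to compare.

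A B cell senses antigen through surface immunoglobulin, which signals through the Cd79a and Cd79b chains. Their tails are phosphorylated by Lyn and Blk, bind Syk, and pass the signal through the adaptor Blnk to Btk and the phospholipase Plcg2. Co-receptors lower the threshold of that signal, inhibitory receptors raise it, and the transcription factors Ebf1 and Pax5 set and hold the lineage. Regulatory T cells carry a T cell receptor instead, but some of these genes are also used by T cells, myeloid cells or plasmacytoid dendritic cells. By general knowledge the genes were therefore split into 18 that are mainly of the B lineage and 15 that other blood cells share.

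The libraries held 3206781, 3228215 and 2872350 counts, so that 3 counts, taken as the floor, were 0.936, 0.929 and 1.04 CPM (counts per 1000000 counts). Markers of the labelled cell type were abundant: the summed level of 12 T cell genes was 6343, 6172 and 6511 CPM in libraries 1, 2 and 3, and that of 10 regulatory T cell genes 4842, 4650 and 4799 CPM. Other blood cells were also represented, and unevenly. The 9 erythroid genes summed to 8.73, 221 and 185 CPM, and the 10 neutrophil genes to 2.18, 81.8 and 13.6 CPM. Library 1 thus stood apart as low in both. The intervals given cover counting error only. Nothing says that the libraries came from separate animals, so a p-value speaks of these libraries, whose spread may be technical.

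The B cell genes did not behave as a block. Across libraries 17 of the 28 genes with enough counts to test differed by more than counting error, against 27.6% of all 10282 genes tested (chi-square of the 3 counts against Poisson, adjusted p under 0.05). Of these 17, 16 were highest in library 3, a class that held 7.75% of all genes tested, and the other, Swap70, was highest in library 1. Libraries 3 and 1 were then compared, the pair with the widest difference for B cell genes in earlier results of these data. That choice favours a difference, so the comparison is no independent support. By an exact binomial test 12 of 28 genes had more counts in library 3 than in library 1 (3.28% of all genes). Of the 28 genes 0 were lower (5.38% of all genes), and no gene among them had an interval wholly below 1. Over the 28 genes the log2 ratio of library 3 to library 1 had a median of 0.76, and over all genes tested one of -0.02. The remaining 5 genes, Pax5, Bcl11a, Cd24a, Fcgr2b and Vpreb3, had mean counts under 10 and were not tested. In bulk RNA fewer cells of a type and less RNA per cell cannot be told apart.

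The size of these calls rests on the error assumed. With a negative binomial model that allows every gene a coefficient of variation of 12.5%, estimated from these same libraries, 3 of the 28 passed (Ms4a1, Fcer2a and Plcg2, all highest in library 3), against 0.914% of all genes. Without library 3 the chi-square test called 5 of 26 genes (Cd72, Cd79a, Cd79b, Ly86 and Swap70), or 19.2%, which is near the 19.5% of all genes called there. Without library 1 it called 11 of 31, against 16.5% of all genes, and Cd180, Cd79b, Fcrla, Ly86, Swap70 and Syk were lost. Without library 2 it called 12 of 28, against 9.38% of all genes, and Cd180, Cd72, Spib, Swap70 and Syk were lost.

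**Figure D1:**
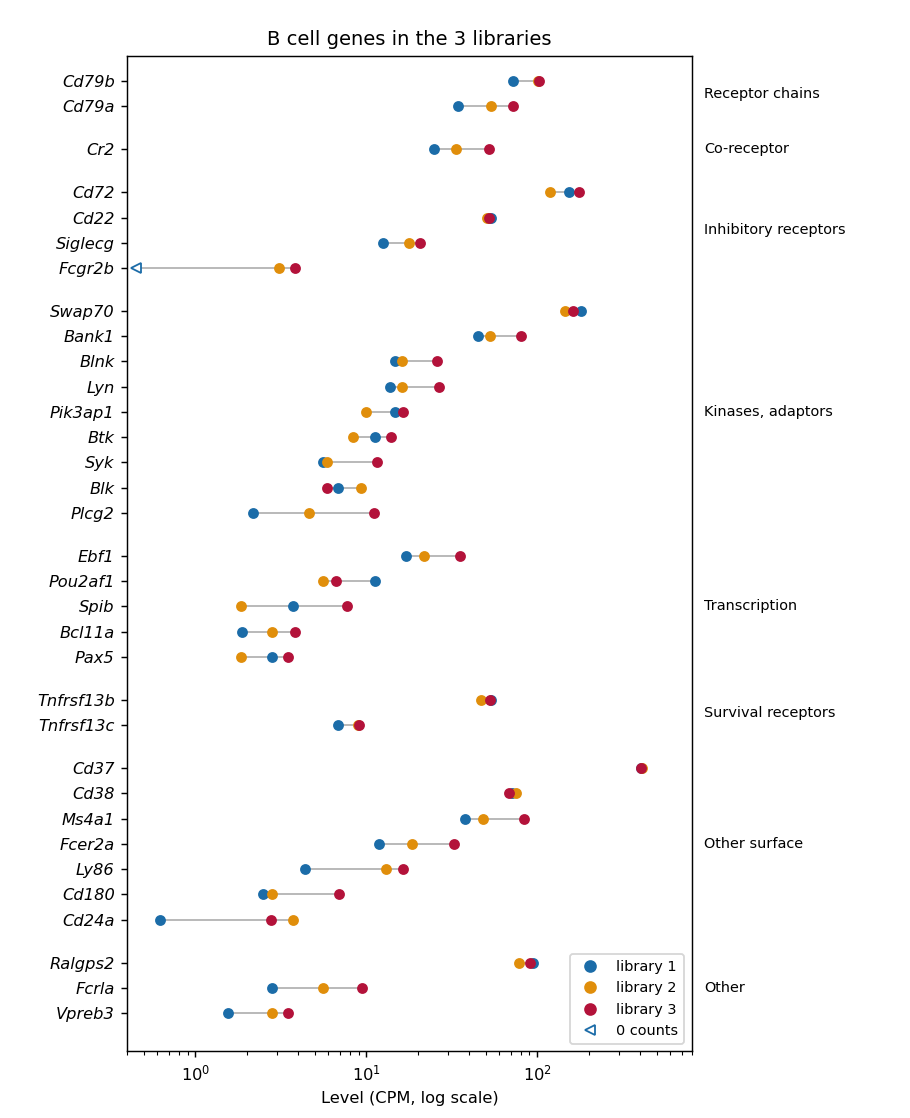
Level of each of the 33 genes in CPM (log axis) in libraries 1, 2 and 3, grouped by role, with a grey line from the lowest to the highest library and an open triangle for 0 counts. Ms4a1, Cd79a, Cr2 and Bank1 spread out with library 3 on the right, whereas the 3 points of Cd37 and of Cd22 lie on each other.

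The signalling chains of the receptor were both present and both higher in library 3 than in library 1. Cd79a (chromosome 7, 24897381 to 24902197, plus strand, GRCm38) had 111, 174 and 207 counts in libraries 1, 2 and 3, or 34.6, 53.9 and 72.1 CPM. Library 1 was lowest and library 3 highest, with library 2 between them. In scaled counts library 3 exceeded library 1 2.08-fold (95% exact interval 1.64 to 2.64, exact test adjusted p = 4.93e-08). Cd79b (chromosome 11, 106311341 to 106314762, minus strand) had 230, 326 and 293 counts, or 71.7, 101 and 102 CPM. Here libraries 2 and 3 stood together above library 1: the ratio was 1.42 for library 3 to library 1 (1.19 to 1.69, adjusted p = 0.00262, exact test) and 1.03 for library 3 to library 2 (0.880 to 1.21). The paired chains thus shared a low library 1 but not the step from library 2 to library 3, where Cd79a was 1.37-fold higher (1.11 to 1.68, adjusted p = 0.0230, exact test). The difference between the steps was not tested.

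Of the surface genes of mature B cells, Ms4a1, Fcer2a and Cr2 were all higher in library 3 than in library 1. Ms4a1 (chromosome 19, 11249675 to 11266241, minus strand) encodes CD20, the target of therapeutic B cell depletion, and had 121, 155 and 239 counts. Its level of 37.7, 48.01 and 83.2 CPM put library 3 2.20-fold above library 1 (1.76 to 2.76, adjusted p = 1.31e-10, exact test) and 1.77-fold above library 2 (1.44 to 2.18, adjusted p = 1.37e-06). Fcer2a (chromosome 8, 3681737 to 3694175, minus strand), which encodes the low-affinity IgE receptor CD23 of follicular B cells, had 38, 60 and 93 counts. It stood at 11.8, 18.6 and 32.4 CPM, with library 3 2.72-fold above library 1 (1.85 to 4.08, adjusted p = 7.96e-06). Cr2 (chromosome 1, 195136811 to 195176716, minus strand), the complement receptor CD21 and a co-receptor of the B cell receptor, had 80, 108 and 149 counts. At 24.9, 33.5 and 51.9 CPM its library 3 was 2.07-fold above library 1 (1.57 to 2.76, adjusted p = 1.05e-05). In all 3 genes library 2 lay between the others, and its excess over library 1 did not pass (adjusted p = 0.244, 0.166 and 0.234, exact test).

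The toll-like partner genes had few counts. Ly86 encodes MD-1, the partner of the receptor RP105 that Cd180 encodes, and both are found on B cells and myeloid cells. Ly86 had 14, 42 and 47 counts, with libraries 2 and 3 together and library 1 apart (ratio of library 3 to library 1 3.74, 2.02 to 7.35, adjusted p = 0.000249, exact test). Cd180 had 8, 9 and 20 counts, with library 3 apart instead (chi-square adjusted p = 0.0342), and its ratio of library 3 to library 1 did not pass (2.78, 1.17 to 7.30, adjusted p = 0.125, exact test). Cd180 lies within the span of Mast4 on the opposite strand, whose counts were 137, 172 and 154, and without a known strand setting the reads of such a pair cannot be told apart.

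The mainly B lineage genes with the largest ratio of library 3 to library 1, among those that passed the test, were Fcrla, Fcer2a, Ms4a1 and Cd79a. Promoter sequences are shown for Fcrla, Fcer2a and Cd79a, picked by that ratio alone, and Ms4a1, which had no matched promoter, is named only. Whether these genes moved together was not tested. RefSeq promoters (GRCm38.p6) matched 28 of the 33 genes, with 35 start sites. The bases printed lie before the RefSeq start and before the M21 gene model. Fcrla lies at chr1:170927584-170927833 (minus strand), Fcer2a at chr8:3694176-3694424 (minus strand) and Cd79a at chr7:24897247-24897380 (plus strand). Each is written 5′ to 3′ on the strand of its gene. Capitals mark GAGGAA on either strand, a core bound by the SPI factors Spib and PU.1.
Fcrla: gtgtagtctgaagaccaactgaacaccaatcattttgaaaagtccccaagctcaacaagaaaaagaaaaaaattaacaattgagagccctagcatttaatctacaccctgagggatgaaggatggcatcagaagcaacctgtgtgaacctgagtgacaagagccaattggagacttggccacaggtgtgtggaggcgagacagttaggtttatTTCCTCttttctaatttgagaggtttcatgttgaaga
Fcer2a: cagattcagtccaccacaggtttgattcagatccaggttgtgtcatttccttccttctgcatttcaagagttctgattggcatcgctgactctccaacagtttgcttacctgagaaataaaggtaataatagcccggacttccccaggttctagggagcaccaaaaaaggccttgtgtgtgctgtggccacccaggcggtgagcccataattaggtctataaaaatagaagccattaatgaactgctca
Cd79a: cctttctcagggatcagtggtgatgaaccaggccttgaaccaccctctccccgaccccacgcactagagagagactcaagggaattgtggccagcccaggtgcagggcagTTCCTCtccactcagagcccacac

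Motifs were searched on both strands in the 250 bases before each start. GAGGAA occurred in 9 of the 35 start sites of the B cell genes (25.7%) and in 23.3% of all 32851 start sites. It lay 37 to 32 bases before the RefSeq start of Fcrla and 140 to 135 bases before that of Cd79a, while the Fcer2a window held none. The RefSeq start of Cd79a lies inside the M21 gene model, so only the first 134 of its 250 bases are printed. The match in Cd79a is therefore closer to the M21 start than to the RefSeq start. The octamer ATGCAAAT, the site that the co-activator Pou2af1 works at, occurred in 2 of 35 (5.71%, in Blnk and Vpreb3) and in 1.60% of all start sites. CCCNNGGG, the core of the Ebf1 site, occurred in 3 of 35 (8.57%, in Bank1, Cd22 and Spib) and in 11.8% of all. A match is a description of these letters, not evidence of binding.

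Among the kinases, adaptors and enzymes of the receptor pathway 6 of 9 differed between the libraries (27.6% of all genes tested), 5 of them highest in library 3 (7.75% of all genes). Plcg2 (chromosome 8, 117498291 to 117635142, plus strand), the phospholipase that releases calcium, had 7, 15 and 32 counts and the largest ratio of library 3 to library 1 among the tested genes (5.09, 2.21 to 13.7, adjusted p = 0.000772, exact test). Its counts were low in every library, so its interval is wide. Bank1, a B cell scaffold protein, had 145, 171 and 232 counts, a ratio of 1.78 (1.44 to 2.21, adjusted p = 5.08e-06). Blnk, the linker between Syk and its targets, had 47, 52 and 74 counts (ratio 1.75, 1.20 to 2.58, adjusted p = 0.0405, exact test), a call lost once genes of mean count 1 or more were admitted. Libraries 1 and 2 lay close together in both, with library 3 above them.

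Lyn, the kinase that starts the signal and also serves inhibition, had 44, 52 and 76 counts (ratio of library 3 to library 1 1.92, 1.31 to 2.85, adjusted p = 0.0121, exact test). Syk, which binds the phosphorylated tails, had 18, 19 and 33 counts. It passed the chi-square narrowly (adjusted p = 0.0428), was lost with genes of mean count 1 or more and with thinned counts, and missed the exact test (ratio 2.04, 1.12 to 3.85, adjusted p = 0.133). Both genes had their excess in library 3, and myeloid cells express both.

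Not every pathway member was called as highest in library 3. Btk, the kinase that activates Plcg2, had 36, 27 and 40 counts (ratio of library 3 to library 1 1.24, 0.768 to 2.00), and Pik3ap1, the adaptor BCAP, had 47, 32 and 47 counts (1.11, 0.727 to 1.70). Both were lowest in library 2, and neither passed the chi-square (adjusted p = 0.207 and 0.146). Their ratios of library 3 to library 2 were 1.70 (1.02 to 2.89) and 1.69 (1.06 to 2.73), which did not pass (adjusted p = 0.161 and 0.125, exact test). The interval of Btk for library 3 to library 1 includes the 1.92 of Lyn, and a difference between them was not tested. Blk, a Src family kinase of B cells, had 22, 30 and 17 counts and its lowest value in library 3 (ratio 0.860, 0.429 to 1.70, chi-square adjusted p = 0.478). At 17 to 30 counts its interval is wide and overlaps those of Lyn and Syk. Overlap of intervals is no test, and whether Blk took a separate course from them was not tested. Swap70, which links phosphoinositide signals to actin, was far more abundant at 580, 471 and 468 counts and differed by chi-square (adjusted p = 0.00396). Library 1 was highest: the ratio was 0.786 for library 2 to library 1 (0.695 to 0.889, adjusted p = 0.00166, exact test) and 0.898 for library 3 to library 1 (0.793 to 1.02, adjusted p = 0.328).

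**Figure D2:**
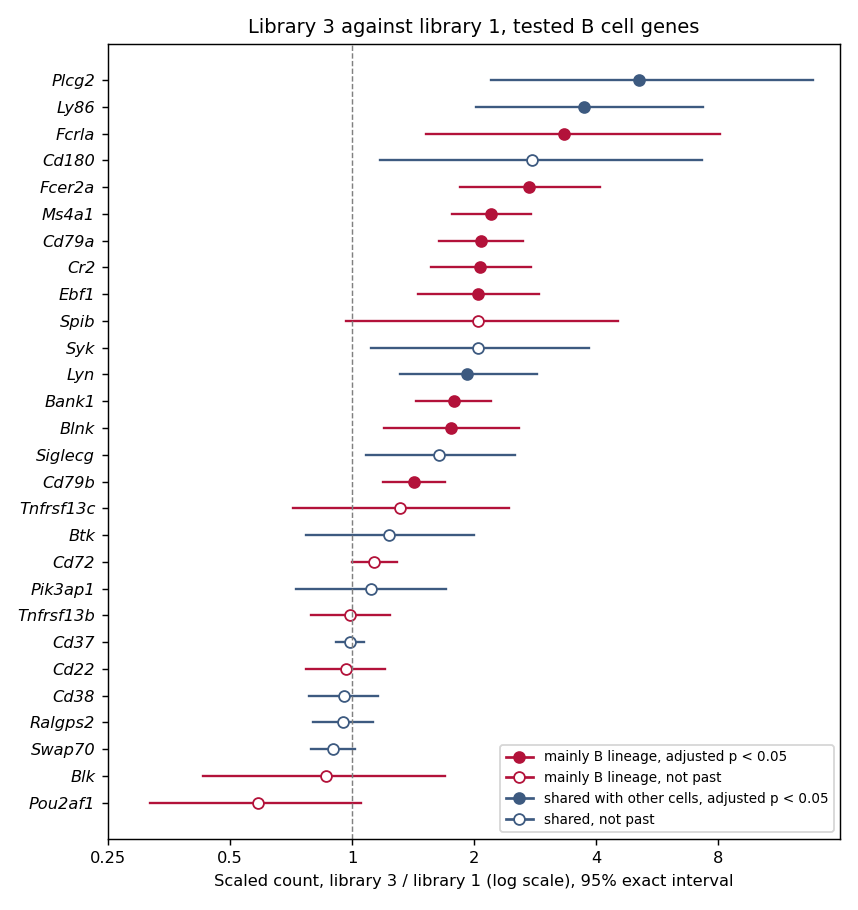
Ratio of scaled counts in library 3 to library 1 (log axis) with 95% exact intervals for the 28 tested genes, filled where the exact test passed an adjusted p of 0.05. The 12 filled points lie between 1.42 (Cd79b) and 5.09 (Plcg2), and Cd37, Cd22, Cd38, Ralgps2 and Tnfrsf13b lie close to 1 with narrow intervals.

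Inhibitory receptors followed no common course. Cd22 (chromosome 7, 30865402 to 30880342, minus strand), a sialic acid-binding receptor of B cells that damps the receptor signal, had 172, 165 and 149 counts, or 53.6, 51.1 and 51.9 CPM. The 3 libraries nearly coincided, and the ratio of library 3 to library 1 was 0.964 (0.769 to 1.21). Its upper bound lies below the lower bounds of Ms4a1 (1.76), Cd79a (1.64), Cr2 (1.57) and Bank1 (1.44), which are also mainly B lineage genes. Cd72, a C-type lectin of B cells, had 494, 384 and 504 counts, or 154, 119 and 175 CPM. It was low in library 2 only, differed by chi-square (adjusted p = 1.91e-07) and stood 1.51-fold higher in library 3 than in 2 (1.32 to 1.73, adjusted p = 9.36e-08, exact test), while its ratio of library 3 to library 1 was 1.14 (1.00 to 1.29, adjusted p = 0.233).

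Siglecg, a further sialic acid-binding receptor, had 40, 57 and 59 counts (ratio 1.64, 1.08 to 2.52) and did not pass (chi-square adjusted p = 0.130). Fcgr2b, the inhibitory Fc receptor of B cells and myeloid cells, had 0, 10 and 11 counts. With library 1 set to the floor of 3 counts, the ratio of library 3 to library 1 was 4.08, which is not a lower bound. From the counts themselves the exact 95% lower bound was 2.79. Fcgr2b was too low for the main test, and passed once genes with a mean count of 1 or more were admitted. Cd72 overlaps Tesk1 on the opposite strand, which had 16, 26 and 15 counts, few beside those of Cd72.

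The transcription regulators of the lineage were low, and Ebf1 stood out among them. Ebf1, the factor that opens the B cell program, had 55, 70 and 101 counts, or 17.2, 21.7 and 35.2 CPM, and library 3 exceeded library 1 2.04-fold (1.46 to 2.89, adjusted p = 0.000787, exact test). Spib, an Ets factor of B cells and plasmacytoid dendritic cells, had 12, 6 and 22 counts and differed by chi-square (adjusted p = 0.0109), with library 3 4.22-fold above library 2 (1.66 to 12.7, adjusted p = 0.0119, exact test). Pou2af1, the co-activator of octamer sites, went the other way, with 36, 18 and 19 counts and library 1 highest. It did not pass (chi-square adjusted p = 0.0675; ratio of library 3 to library 1 0.587, 0.318 to 1.05), but that upper bound lies below the lower bound of Ebf1.

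Pax5, the factor that keeps B cells in their lineage, had only 9, 6 and 10 counts (2.72 ± 0.815 CPM, SD, n = 3). Bcl11a, needed early in the lineage and also expressed in plasmacytoid dendritic cells, had 6, 9 and 11 counts. Neither was tested, and a difference such as the 2.04-fold one of Ebf1 lies inside both of their intervals for library 3 to library 1 (0.452 to 3.44 and 0.692 to 6.72).

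The receptors for the survival factor BAFF showed no difference that passed. Tnfrsf13b, which encodes TACI, had 171, 151 and 152 counts, or 53.3, 46.8 and 52.9 CPM (ratio of library 3 to library 1 0.989, 0.790 to 1.24). Tnfrsf13c, which encodes the BAFF receptor of mature B cells, had 22, 29 and 26 counts (1.32, 0.717 to 2.43). The interval of Tnfrsf13b leaves no room for a ratio like that of Ms4a1, whereas that of Tnfrsf13c includes it.

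Among the shared genes, Cd37, Cd38 and Ralgps2 were abundant and did not pass the test. Cd37, a tetraspanin of lymphocytes, had 1303, 1318 and 1157 counts, or 406, 408 and 403 CPM, with a ratio of library 3 to library 1 of 0.988 (0.912 to 1.07). At 1.23 counts per coding base it belongs to a dense class in which unscaled counts followed depth little: unscaled log2 ratios of library 3 to library 1 had a median of -0.05 in 340 genes with 1 or more counts per coding base and of -0.19 in the 8900 genes at or under 0.5, where the totals differ by -0.16. The other 27 tested B cell genes are at or under 0.5. The counts of Cd37 itself did follow depth: scaled by plain totals, its log2 ratio of library 3 to library 1 was -0.01. Cd37 overlaps Tead2 on the opposite strand, which had 26, 20 and 18 counts. Cd38, an ecto-enzyme of activated lymphocytes, had 229, 242 and 196 counts (0.953, 0.783 to 1.16). Ralgps2, a guanine exchange factor for Ral, had 303, 254 and 259 counts (0.951, 0.803 to 1.13), and its neighbour Angptl1 on the opposite strand 17, 18 and 20.

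The remaining small genes were counted only few times. Fcrla, an intracellular Fc receptor-like protein of B cells, had 9, 18 and 27 counts and library 3 exceeded library 1 3.34-fold (1.52 to 8.07, adjusted p = 0.0226, exact test). Vpreb3, which associates with immunoglobulin chains during assembly, had 5, 9 and 10 counts. Cd24a, a surface protein of immature B cells that red cell precursors and granulocytes carry as well, had 2, 12 and 8 counts. Library 1 was lowest and library 2 highest, but the ratio of library 3 to library 2 was 0.766 (0.272 to 2.04), so the order of these libraries is not settled. The summed erythroid, neutrophil and plasma cell levels had the same order, and a link to any of them was not tested.

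**Figure D3:**
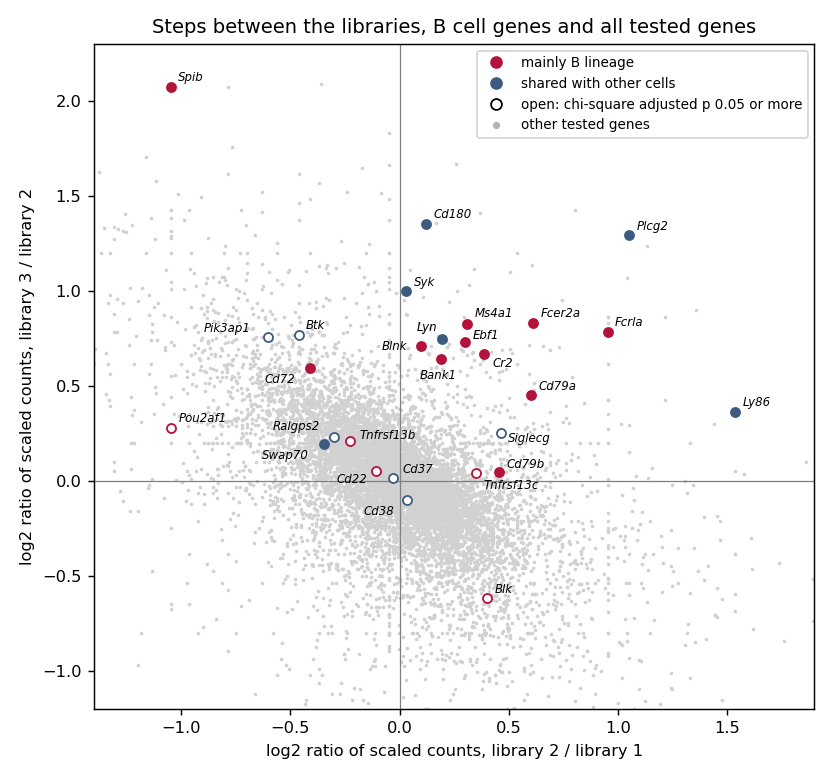
Log2 ratio of library 2 to library 1 (horizontal) against that of library 3 to library 2 (vertical) for the 28 tested genes and, in grey, for all tested genes with a count in every library that fall within the axes. Filled points passed the chi-square. Ms4a1, Ebf1, Cr2, Lyn, Bank1 and Blnk sit together at upper right, Cd79b and Ly86 differ mainly along the horizontal axis, and Cd72, Btk and Pik3ap1 lie at upper left. Both axes share library 2.

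The pattern with library 1 lowest, library 2 between and library 3 highest was met in 16 of 28 tested genes and in 12.8% of all genes tested. It comprised 10 of 16 mainly B lineage genes and 6 of 12 shared genes. Regardless of order, 10 of the 28 genes were higher in library 3 than in library 2 (exact test, 8.87% of all genes), Cd72 and Spib among them, in which library 2 was lowest, and 3 were higher in library 2 than in library 1 (Cd79a, Cd79b and Ly86, 7.32% of all genes). By lineage class, 11 of 16 mainly B lineage genes and 6 of 12 shared genes differed by chi-square (27.6% of all genes tested). Their log2 ratios of library 3 to library 1 had medians of 0.82 and 0.51, and the shared genes without Cd37 and Swap70 had one of 0.83. In summed level the mainly B lineage genes stood at 555, 598 and 809 CPM and the shared ones at 822, 796 and 858 CPM, of which Cd37 and Swap70 held most. Without these 2 the shared genes summed to 235, 242 and 292 CPM.

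Other genes of the receptor pathway, 26 that are not among the 33, were spread over all 3 directions. Of these, 12 differed by chi-square (46.2%, against 27.6% of all genes tested). Library 1 was highest in 5, library 2 in 5 and library 3 in 2, and the log2 ratios of library 3 to library 1 had a median of -0.04 over the list. Rasgrp3, a Ras activator downstream of Plcg2 in B cells, had 25, 31 and 54 counts (highest in library 3). Prkcb, the protein kinase C of the B cell NF-kB pathway, had 186, 280 and 240 counts, and Vav3, an exchange factor, 120, 140 and 79 (both highest in library 2). Prkcb was also higher in library 3 than in library 1 (ratio 1.44, adjusted p = 0.00596, exact test), whereas Vav3 had a ratio of 0.733 and did not pass. By that test 3 of the 26 were higher in library 3 than in library 1 (3.28% of all genes) and 2 were lower (5.38%). Pik3cg, with 524, 376 and 371 counts, and Dapp1, with 424, 332 and 338, were highest in library 1. T cells use many of these signalling genes as well.

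Markers of other cells followed different courses across the libraries. Of all genes tested 27.6% differed, and 7.75% differed and were highest in library 3. The 2836 genes that differed were highest in library 1 in 1143 cases, in library 2 in 896 and in library 3 in 797. Antigen presentation genes, which B cells and other presenting cells share, differed in 7 of 10, all highest in library 3, and summed to 1099, 1231 and 1535 CPM. H2-Aa, a class II chain, had 313, 432 and 601 counts (ratio of library 3 to library 1 2.14). Monocyte and macrophage genes summed to 90.4, 93.6 and 118 CPM, with 4 of 7 tested genes differing, 3 highest in library 3. These 3 were lowest in library 2, such as Csf1r with 50, 19 and 46 counts. The other, Ms4a6c, was the most abundant of the list and highest in library 2, with 128, 188 and 135 counts. The sum therefore hides opposite courses in library 2. The NK cell genes summed to 135, 166 and 182 CPM (2 of 3 tested differed, both highest in library 3). The plasmacytoid dendritic cell genes summed to 326, 320 and 301 CPM (2 of 5 differed, in different libraries). Most of that sum came from Pacsin1, Bst2, Irf8 and Ccr9. The genes of this list too low to test were all highest in library 3, at 11 counts or fewer, so the sum does not show their course. Plasma cell genes summed to 236, 329 and 267 CPM with 1 of 5 tested genes differing, Jchain, at 92, 389 and 129 counts and highest in library 2. All 7 tested erythroid genes differed, 5 highest in library 2, as did all 4 tested neutrophil genes, which were highest in library 2. Of T cell genes 9 of 12 differed, 6 highest in library 3, with a median log2 ratio of 0.08. Their share called, 75.0%, was above the 60.7% of the B cell genes, so a high share called is not particular to the B cell genes. The shares are not alike in size of difference, because the T cell genes had many more counts and small differences passed. Lck, the most abundant, had 3171, 3135 and 3042 counts and a highest-to-lowest ratio of 1.12. At 2.00 counts per coding base it is, like many of the list, in the dense class in which unscaled counts followed depth little. Of regulatory T cell genes 3 of 10 differed (0.03). The part of these cells in the B cell genes' differences was not tested.

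**Figure D4:**
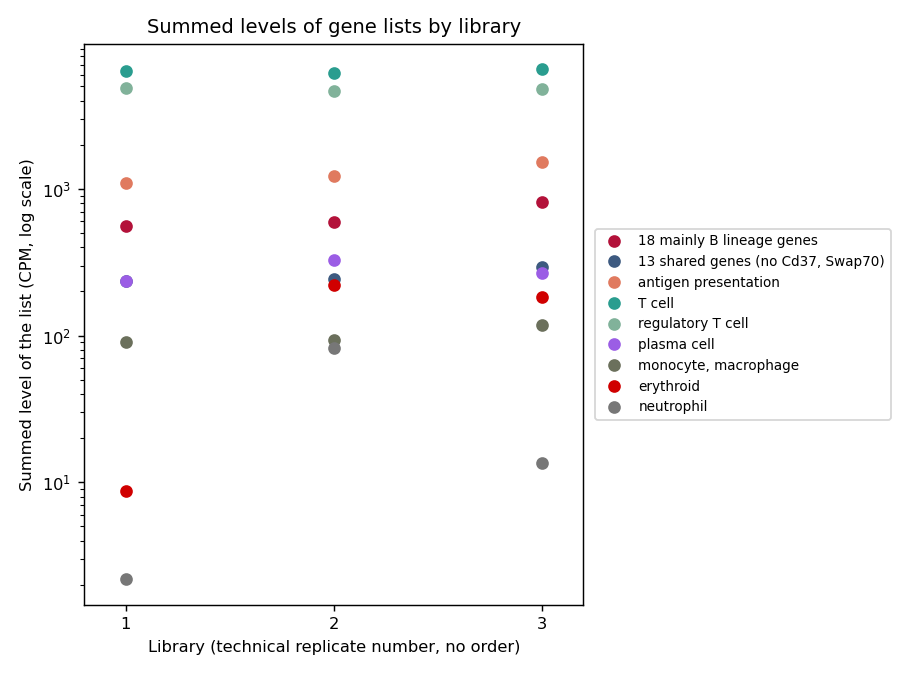
Summed level in CPM (log axis) of the mainly B lineage genes, the shared genes without Cd37 and Swap70 (hidden behind the plasma cell point in library 1), and 7 lists of markers (antigen presentation, T cell, regulatory T cell, plasma cell, monocyte and macrophage, erythroid and neutrophil), in each library. The B lineage and antigen presentation sums are highest in library 3, the erythroid, neutrophil and plasma cell sums in library 2, and the 2 T cell sums are nearly level.

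Levels of different genes were compared per kb (1000 bases) of coding sequence, as mean ± SD over the 3 libraries. Cd37 led at 396 ± 2.70 CPM per kb, ahead of Cd72 at 138 ± 26.3, Cd79b at 106 ± 19.9, Swap70 at 93.0 ± 9.96, Cd79a at 81.1 ± 28.4 and Cd38 at 78.4 ± 3.69. Tnfrsf13b (68.3 ± 4.91), Ms4a1 (64.5 ± 27.3) and Ralgps2 (46.6 ± 4.34) came next. In all 12 genes reached 20 CPM per kb, and 7 stayed under 5, down to 1.09 ± 0.376 for Bcl11a. Of 32 pairs of neighbours in this order, 29 overlapped within 1 SD. The 3 gaps lay below Cd37, below Cd38 and below Ralgps2. Within the receptor pathway the signalling chains therefore stood well above Lyn (12.2 ± 4.41), Blnk (13.7 ± 4.40), Btk (5.65 ± 1.41), Blk (4.91 ± 1.16), Syk (4.06 ± 1.76) and Plcg2 (1.58 ± 1.22). Ebf1 (13.9 ± 5.27) stood above Pax5 (1.94 ± 0.584). At 1 CPM or more in every library were 31 of the 33 genes, all but Fcgr2b and Cd24a.

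**Figure D5:**
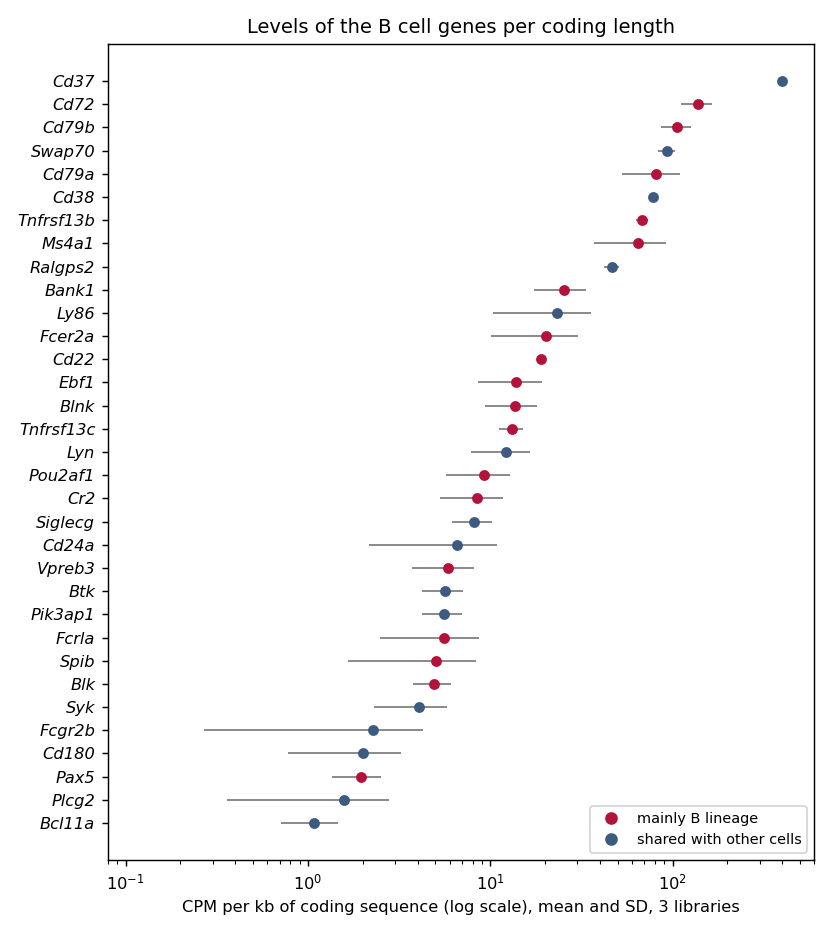
Level of each gene in CPM per kb of coding sequence (log axis), as mean and SD over the 3 libraries, coloured by lineage class. Levels run from 1.09 (Bcl11a) to 396 (Cd37), and both classes span the range.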

How the data were processed

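The 3 deposited tables hold whole-number counts per gene for 22457 genes, which the authors quantified on mm10 with GENCODE M4, per the file descriptions. Aligner, counter, strand setting and duplicate handling were not given in the sources used here, so reads of a gene and of one that overlaps it cannot be told apart. Names, positions and lengths came from GENCODE M21 on the same assembly (22195 identifiers matched, 262 did not), by identifier without its version.

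Levels are CPM by total count. Ratios and tests used totals times TMM factors from edgeR 4.0.16 (R 4.3.3). The 3 counts of each gene with a mean count of at least 10 were tested by Pearson's chi-square against Poisson expectation (2 degrees of freedom), and pairs of libraries by a 2-sided exact binomial test given their sum. P-values were adjusted by Benjamini-Hochberg over all 10282 genes tested, at 0.05. Ratios carry 95% exact (Clopper-Pearson) intervals. Both tests were checked on simulated Poisson counts with some genes raised in library 3. Such counts hold no spread beyond counting error in the other genes, so the check does not bear on false calls in the real libraries. Other settings tried were size factors from DESeq2 1.42.0, totals alone, mean counts of 1 or 50, a threshold of 0.01, a negative binomial model with edgeR's common dispersion, leaving out genes above 0.5 counts per coding base, thinning, and leaving out each library. Scripts ran in Python 3.11.15 with pandas 2.3.3, scipy 1.17.1 and numpy 2.4.6, and plots in matplotlib 3.10.9. Promoters came from RefSeq (GRCm38.p6).

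The genes, the lists, the split by breadth of expression and the pair of libraries 3 and 1 were chosen with earlier results of these data known. All 33 genes are named. Of the pathway and marker lists, the naming rule allowed the 6 pathway genes past the test with the largest ratio of highest to lowest library and the 4 most abundant genes of each marker list, and 1 pathway gene that it takes is not reported here. Promoters were printed, where matched, for the 4 mainly B lineage genes past the test with the largest ratio of library 3 to library 1. Of 112 list entries 111 matched.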

Additional observations from a re-analysis of the deposited data

How the results depend on the processing

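The counts of B cell genes that differed (17), that were highest in library 3 (16) and that were higher in library 3 than in library 1 (12) were the same under DESeq2 size factors and plain totals. In the ratio of library 3 to library 1, each of the 28 tested genes kept its direction and its side of the threshold under these and under thinned counts. The negative binomial model lowered the genes called from 2836 to 94, the B cell genes called to 3 and those highest in library 3 to 3. An adjusted p of 0.01 left 1700 genes. A mean count of at least 50 left 17 B cell genes to test, of which 11 were called and 10 were highest in library 3. Leaving out a library gave 960 (without library 2) to 2014 (without library 3) genes and 5 (without library 3) to 12 (without library 2) B cell genes; without library 1 the numbers were 1691 and 11. Which B cell genes were highest in library 3 has no value without that library. The median level of the 33 genes, 16.9 CPM, became 12.2 per kb of coding sequence and 3.51 per kb of merged exons, which are other units. Depth limits the 5 untested genes and those under about 30 counts, whose intervals are wide. With 1 biological replicate nothing here measures the spread between animals.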
